A study of Mus musculus with 6 samples.

Results

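The genes of mouse chromosome 9 that lie within 10 Mb of Nrg4 on either side were examined in the liver of Nrg4 knockout mice. Members were chosen by position, from the RefSeq gene table of the GRCm38.p6 build, with earlier results of these data known. The whole span of the gene had to lie in the window, and the probe set had to carry exactly 1 gene symbol. Nrg4 itself, Nnmt, Hexa and symbols that start with Apo, Cyp, Cox, Rp or Sdh were left out. The table held 459 genes in the window, of which 440 met the rule, and 175 of them had a probe set on the array. These 175 genes were read by 297 of the 45141 probe sets. 84 genes (145 probe sets) lay on the lower-coordinate side of Nrg4, 90 genes (149 probe sets) on the upper-coordinate side, and 1 gene, Fbxo22 (3 probe sets), overlapped the span of Nrg4. Of 201 protein-coding genes that met the rule, 163 had a probe set.

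Genes that lie close together on a chromosome are inherited together, so alleles near an engineered locus travel with it when a line is bred. Neighbouring genes can also share regulatory DNA and a chromatin domain, although neighbours need not share a function. The window holds genes of varied roles in liver: enzymes of the mitochondrion, signalling and DNA damage proteins, proteasome parts and neuronal receptors that hepatocytes barely use. An Affymetrix probe set is a group of short oligonucleotides that read 1 stretch of a transcript, mostly near its 3′ end, so different probe sets of a gene can read different exons or transcript ends.

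Wild-type and Nrg4 knockout mice, all labelled C57BL/6, received a high-fat diet from 3 months of age for 8 weeks, and livers were taken in the random-fed state. Each genotype was represented by 3 pools of liver RNA, each on its own array. Every value is the log2 signal that the authors obtained with RMA, a method that corrects background, normalises between arrays and sums the probes of a set. How the knockout allele was made, in which strain, and how many mice went into a pool are details that the sources used here do not give, and no group on another diet was included.

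Nrg4 signal lay between 4.77 and 4.94 on the wild-type arrays and between 2.43 and 2.64 on the knockout arrays (log2 change −2.30, SE 0.10, limma, adjusted p = 8.63e-05). Hepatocyte markers had nearly the same summed signal in both genotypes (log2 of the sum 13.99 to 14.05 in wild type, 13.98 to 14.06 in knockout). The summed signal of 8 macrophage markers ranged from 10.12 to 10.27 in wild type and from 10.29 to 10.82 in knockout, and that of 7 stellate cell and matrix markers from 9.49 to 9.72 and from 9.93 to 10.12. Of 7 endothelial markers 6 had positive differences (median 0.33), but their summed signal overlapped, at 8.89 to 9.39 in wild type and 9.23 to 9.48 in knockout. The summed signal of 5 lymphocyte markers ran from 5.84 to 5.93 in wild type and from 6.01 to 6.09 in knockout. No marker passed the adjusted test. Krt19, Krt7, Adipoq, Acta1 and Prss1, markers of bile duct, fat, muscle and pancreas, were below the limit used for dim probe sets. The control probe set for the 5′ part of 18S ribosomal RNA read 8.12 to 8.80 in wild type and 5.61 to 6.71 in knockout. The middle part read 7.92 to 8.14 in wild type and 5.74 to 6.59 in knockout. At the 3′ part the values were 7.45 to 7.73 and 6.67 to 6.89, so every part was lower in knockout. The actin and Gapdh controls averaged a 5′ minus 3′ signal of −0.96 to −0.78 in wild type and −1.31, −0.70 and −0.65 in the knockout arrays 1, 2 and 3. The part of these differences in the results was not tested. In pooled tissue RNA, fewer cells of a type and less RNA per cell cannot be told apart.

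Of the 297 member probe sets, 192 (131 genes) were bright enough to test, with a mean over the 6 arrays above the limit of 2.66 on the log2 scale. The mean signal of the tested probe sets ran from 2.67 to 10.43, with a median of 4.29. The other 105 probe sets, which left 44 genes untested, had no value above 3.02 on any array, and their largest change in either direction was 0.60. For comparison, 23 unspecific control probe sets had medians of 1.65 to 1.76 across the arrays. The highest of them read 5.29 to 5.84, above the signal of the called Tex12 and Atm probe sets on every array.

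3 member probe sets passed an adjusted p of 0.05 when every probe set of the array was fitted together with limma and Benjamini-Hochberg adjustment: one for Tex12 rose in the knockout, and one each for Dixdc1 and Atm fell. All 3 lay on the lower-coordinate side. The same test called 0.0481% of all 27022 probe sets tested, or 13. When 1 probe set, the brightest, stood for each gene, 2 of the 131 member genes passed, Tex12 and Dixdc1, against 0.0401% of all 12466 genes. The brightest probe set of Atm was not the one that fell. At an adjusted p under 0.10, 5 member probe sets passed, with Zbtb16 and Bco2 added. Each called probe set separated the genotypes completely, but an exact permutation test of 3 arrays against 3 cannot give a p below 0.1, so the calls rest on the spread shared across probe sets. The calls also depend on single arrays: without wild-type array 1, 2 or 3, or without knockout array 3, no member probe set passed. Without knockout array 1 the calls were Tex12, Dixdc1 and Nxpe2, and without knockout array 2 they were Atm and Dixdc1.

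Tex12, 4.66 Mb from Nrg4, encodes a protein of the synaptonemal complex, the structure that holds paired chromosomes together in meiosis. Its 1 probe set (1421183_PM_at) read 3.02, 3.03 and 2.87 on the wild-type arrays and 3.77, 3.90 and 3.81 on the knockout arrays. All 3 wild-type arrays were close to the array medians of 2.98 to 3.04, and all 3 knockout arrays lay above every wild-type array. Tex12 rose by 0.85 on the log2 scale (SE 0.09, n = 3 arrays per genotype), or 1.81-fold (limma, adjusted p = 0.0237). The RefSeq span of Tex12 lies inside that of Il18. Leaving out 1 array gave log2 changes of 0.80 to 0.88 and adjusted p of 0.0305 to 0.142.

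Dixdc1, 4.48 Mb from Nrg4, encodes a DIX-domain protein of the Wnt pathway. Its brightest probe set (1435207_PM_at) read 5.98, 5.97 and 5.65 in wild type and 4.32, 4.83 and 4.63 in knockout. The genotypes did not overlap, and the lowest wild-type array exceeded the highest knockout array. This probe set fell by 1.27 on the log2 scale (SE 0.15), which makes it 2.41-fold lower in knockout (limma, adjusted p = 0.0334). A dimmer probe set of the gene (1425256_PM_a_at) read 3.05, 3.00 and 3.19 against 3.32, 3.03 and 3.09, and the genotypes overlapped (log2 change 0.07, limma, adjusted p = 0.876). The other two probe sets of Dixdc1 were too dim to test, with means of 2.52 to 2.66 in either genotype. Without 1 array, the change of the bright probe set ranged from −1.39 to −1.13 and its adjusted p from 0.033 to 0.176.

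Atm, 1.68 Mb from Nrg4, encodes the kinase that signals double-strand breaks in DNA. Its probe set 1421205_PM_at read 4.48, 4.27 and 4.58 in wild type and 3.16, 3.51 and 3.03 in knockout. All knockout arrays lay below all wild-type arrays, and the set fell by 1.21 on the log2 scale (SE 0.14), 2.32-fold lower (limma, adjusted p = 0.0334). The other probe set of the gene, 1428830_PM_at, read 4.79, 4.74 and 4.88 in wild type and 4.82, 4.97 and 4.82 in knockout. These values overlapped, and the log2 change was 0.06 (SE 0.09, limma, adjusted p = 0.863). Npat, a histone gene regulator whose start lies beside that of Atm on the other strand, had a log2 change of 0.09 (limma, unadjusted p = 0.474). Without 1 array, the change of 1421205_PM_at ranged from −1.35 to −1.11 and its adjusted p from 0.0219 to 0.178.

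The start regions of the 3 genes are shown because these are the members whose probe sets passed the test. Each is 250 bases before to 50 after a RefSeq start, from GRCm38.p6, on the minus strand, written 5′ to 3′ with motif matches in capitals. The windows are chr9:50561219-50561518 for Tex12, chr9:50737686-50737985 and chr9:50727935-50728234 for Dixdc1, and chr9:53536622-53536921 for Atm. The motifs searched on both strands were the E-box (CACGTG), the CCAAT box (CCAAT), the GC box (GGGCGG) and the TATA box (TATAAA).
Tex12: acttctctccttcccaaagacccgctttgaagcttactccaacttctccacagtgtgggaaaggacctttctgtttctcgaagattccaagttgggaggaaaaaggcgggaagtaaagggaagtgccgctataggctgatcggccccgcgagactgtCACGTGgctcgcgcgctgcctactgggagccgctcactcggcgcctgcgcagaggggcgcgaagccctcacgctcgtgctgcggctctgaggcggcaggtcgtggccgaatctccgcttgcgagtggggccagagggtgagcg
Dixdc1, first start: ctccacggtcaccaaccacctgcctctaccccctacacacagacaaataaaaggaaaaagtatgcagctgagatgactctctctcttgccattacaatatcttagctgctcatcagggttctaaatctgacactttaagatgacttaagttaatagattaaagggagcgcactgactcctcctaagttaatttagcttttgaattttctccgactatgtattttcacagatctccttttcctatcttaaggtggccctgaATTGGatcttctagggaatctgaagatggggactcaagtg
Dixdc1, second start: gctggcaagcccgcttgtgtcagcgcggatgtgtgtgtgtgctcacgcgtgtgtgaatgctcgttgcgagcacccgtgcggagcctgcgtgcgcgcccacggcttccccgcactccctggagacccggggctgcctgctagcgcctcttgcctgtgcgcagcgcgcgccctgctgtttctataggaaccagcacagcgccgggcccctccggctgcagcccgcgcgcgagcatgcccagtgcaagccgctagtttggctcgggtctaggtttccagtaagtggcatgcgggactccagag
Atm: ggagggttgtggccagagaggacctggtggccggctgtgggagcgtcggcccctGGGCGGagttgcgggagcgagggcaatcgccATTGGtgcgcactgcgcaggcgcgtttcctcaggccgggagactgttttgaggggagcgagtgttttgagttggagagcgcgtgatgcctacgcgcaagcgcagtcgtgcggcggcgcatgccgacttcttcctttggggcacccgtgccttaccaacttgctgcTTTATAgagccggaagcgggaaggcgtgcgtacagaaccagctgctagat
The Tex12 window held 1 E-box, a motif found in 7.15% of the 32851 promoter windows of the table. The Atm window held a GC box, a CCAAT box and a TATA box, which occurred in 35.7%, 37.4% and 13.6% of windows. The first Dixdc1 window held 1 CCAAT box, 3 CG dinucleotides and 41.7% G or C, while the second held none of the 4 motifs, 30 CG dinucleotides and 67.7% G or C. The median over all windows was 7 CG dinucleotides. The array does not say which start a transcript used, and a match is only a match of letters.

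Zbtb16, 6.38 Mb from Nrg4, encodes the zinc-finger transcription factor PLZF. Its probe set 1439163_PM_at read 5.87, 5.37 and 5.88 in wild type and 6.87, 6.72 and 7.08 in knockout. The genotypes did not overlap, with a log2 difference of 1.18 (SE 0.16, 2.27-fold higher), but the adjusted p was 0.0624 (limma). The other probe set, 1427638_PM_at, read between 3.60 and 3.65 in wild type and between 3.64 and 3.71 in knockout, a difference of 0.06 (limma, adjusted p = 0.867).

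Bco2, 4.67 Mb away, encodes a mitochondrial enzyme that cleaves carotenoids. It read 6.17, 5.58 and 5.79 in wild type and 4.56, 4.97 and 4.79 in knockout, again without overlap. The log2 difference was −1.08 (SE 0.16, 2.11-fold lower), with an adjusted p of 0.0745 (limma). Nxpe2, 6.87 Mb away, had the widest mean difference among the members, but not a uniform one. It read 5.60, 5.82 and 5.75 in wild type and 5.30, 3.84 and 3.94 in knockout, so knockout array 1 stood near the wild-type arrays (log2 difference −1.36, SE 0.33, limma, adjusted p = 0.245). Without that array, the knockout array that fell least, the difference was −1.83 (limma, adjusted p = 0.00104). Nxpe2 did not pass when any other single array was left out.

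At an unadjusted p under 0.01, a looser count that was not used for calls, 19 member probe sets (18 genes) passed, or 9.9% of the 192 tested. Over all probe sets the share was 2.81%. Of the 19, 6 were higher in knockout (3.12% of members, against 1.53% of all probe sets) and 13 were lower (6.77%, against 1.27% of all). At 49 member probe sets (25.5%) the 3 knockout arrays lay all above or all below the 3 wild-type arrays, against 15.2% of all probe sets. The typical size of change was close to that of the whole array: the median absolute log2 change was 0.10 for the members and 0.099 for all probe sets, and the median signed change was 0.01 and 0.03.

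Among the 19, the changes ranged from −1.36 (Nxpe2) to 1.18 (Zbtb16). The change varied with position. On the lower-coordinate side, 15 of 87 tested probe sets (17.2%) were at an unadjusted p under 0.01, and on the upper-coordinate side 4 of 102 (3.92%). The lower-coordinate count was 8 without knockout array 3, and the upper-coordinate count was 9 without knockout array 1 and 2 without wild-type array 1 or knockout array 3. The difference between the sides was not tested, since neighbouring probe sets are not replicates. In 2 Mb steps outward on the lower side, the counts were 2 of 24, 2 of 7, 7 of 25, 3 of 13 and 1 of 18. On the upper side they were 0 of 22, 1 of 29, 0 of 15, 2 of 16 and 1 of 20. At 4 to 6 Mb on the lower side the median absolute change of the 25 probe sets was 0.279, against 0.099 over the array. The share there was 28%, and the nearest 2 Mb held 8.33% on that side and none on the other, so the share did not fall steadily with distance from Nrg4. Bins with fewer than 20 probe sets hold too few for a firm share, including the bin at 2 to 4 Mb on the lower side, at 28.6%. With 4 Mb bins, the last cut short at 8 to 10 Mb, the lower side had 12.9%, 26.3% and 5.56%. The upper side had 1.96%, 6.45% and 5%.

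The window did not end the pattern. Genes 10 to 20 Mb from Nrg4 had 22 of 185 tested probe sets under 0.01 (11.9%), with 10.5% on the lower side and 13.3% on the upper. The rest of chromosome 9 had 46 of 623 (7.38%), and other chromosomes had 446 of 17974 (2.48%). None of the 13 called probe sets belonged to a single named gene of another chromosome. 3 were members, and 2 lay in the window but were left out by name, with the knocked-out gene Nrg4 among them. 2 lay farther along chromosome 9, and 6 carried no single gene symbol.

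The nearest genes with a tested probe set showed no call. On the lower side these were Ube2q2, a ubiquitin-conjugating enzyme (log2 difference 0.03), Chrna3, a nicotinic receptor subunit (0.04), and Psma4, a proteasome subunit (−0.16), none more than 0.26 Mb away. Chrnb4 and Chrna5, other nicotinic receptor subunits, lay nearer than Psma4 on that side, and Tmem266 lay nearer than Etfa on the upper side, but all 3 were too dim to test. On the upper side the nearest tested genes were Etfa, which passes electrons from fatty acid oxidation to the respiratory chain (−0.02), Isl2, a homeodomain factor (−0.03), and Scaper (−0.22 at its brighter probe set), none more than 0.27 Mb away. At these 6 probe sets the genotypes overlapped, and the smallest adjusted p was 0.681 (limma). The second probe set of Scaper, 1437657_PM_at, read 3.52, 3.56 and 3.50 in wild type and 2.83, 3.41 and 3.09 in knockout. There the genotypes did not overlap (−0.42, limma, adjusted p = 0.399). Fbxo22, an F-box protein gene that overlaps Nrg4, had changes of 0.17, 0.07 and 0.16 at its 3 probe sets, none of which passed. Hykk, a hydroxylysine kinase gene 0.27 Mb away, read 4.39, 4.91 and 4.53 in wild type and 4.10, 4.16 and 4.14 in knockout at 1447310_PM_at (−0.47, limma, adjusted p = 0.32), and −0.19 at its brighter probe set.

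The stretch from Pts to Layn, 4.14 to 4.69 Mb from Nrg4, was looked at gene by gene, after its values had been seen. It spans 0.55 Mb and 16 genes, with 26 probe sets of which 20 (15 genes) were tested. 13 of the 20 had an unadjusted p under 0.05 (4 higher and 9 lower, in 11 genes), where 9.5% of all probe sets did (5.83% higher, 3.67% lower). At 11 of the 20 the genotypes did not overlap, beside 15.2% of all probe sets. Because the stretch was picked for its values, these counts describe it and support nothing further. Changes of opposite direction stood side by side. From the Pts end, Pts itself, an enzyme of tetrahydrobiopterin synthesis, differed by −0.06, Bco2 by −1.08 and Tex12 by 0.85.

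Il18, the gene of an inflammasome cytokine, read 6.53, 6.34 and 5.75 in wild type and 6.60, 6.79 and 6.83 in knockout. The highest wild-type array was just below the lowest knockout array, and the difference was 0.54 (limma, adjusted p = 0.405). Timm8b, a chaperone of the mitochondrial intermembrane space, differed by 0.24 (limma, adjusted p = 0.498) and Pih1d2 by 0.00. Beyond Dlat and Dixdc1, 2310030G06Rik read 5.88, 5.77 and 5.97 against 5.19, 5.46 and 5.37 (−0.53, limma, adjusted p = 0.161). Next came Hspb2, too dim to test, then Cryab (−0.38 and −0.18) and 1110032A03Rik (−0.01 and −0.10). Farther along, Alg9, an enzyme of N-glycan assembly, differed by −0.34. Ppp2r1b, a scaffold subunit of protein phosphatase 2A, differed by −0.41, and Sik2, a salt-inducible kinase, by −0.31. Layn, a hyaluronan receptor, differed by 0.23. Of the 20 tested probe sets, only those for Tex12 and Dixdc1 passed the adjusted test.

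Dlat, which encodes the E2 subunit of the pyruvate dehydrogenase complex, was read by 3 probe sets that did not move as one. 1426264_PM_at read 6.15, 6.09 and 6.04 in wild type and 5.88, 5.60 and 5.67 in knockout (−0.38, limma, adjusted p = 0.303). 1426265_PM_x_at, whose name marks probes that can bind other transcripts, read 6.18, 5.99 and 6.10 against 5.77, 5.57 and 5.51 (−0.47, limma, adjusted p = 0.209). 1452005_PM_at ran the other way, with 4.93, 4.90 and 5.05 against 5.26, 5.24 and 5.22 (0.28, limma, adjusted p = 0.374). The genotypes did not overlap at any of the 3, yet none passed the adjusted test.

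Whether probe sets of a gene differed in their response was tested on the difference between the brightest and another probe set on the same array. The members gave 61 such pairs in 44 genes, and 1 pair passed, that of Atm. Over the whole array 0.0458% of 6552 pairs passed. In Atm, the brighter minus the dimmer probe set was 0.31, 0.47 and 0.30 in wild type and 1.66, 1.46 and 1.80 in knockout. The knockout arrays all lay above the wild-type arrays, and the changes of the probe sets differed by 1.28 (SE 0.13, limma, adjusted p = 0.0184). This call, too, was lost without wild-type array 1, 2 or 3, or without knockout array 3.

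At an unadjusted p under 0.01, 7 of the 61 pairs stood out (11.5%, against 3.27% of all pairs): those of Atm, Zbtb16, Dixdc1, Dlat, Dpp8, Ppcdc and Rdx. The changes differed by 1.13 in Zbtb16 (SE 0.16, limma, adjusted p = 0.0905), by −1.34 in Dixdc1 (SE 0.22, limma, adjusted p = 0.117) and by −0.65 in Dlat (SE 0.13, limma, adjusted p = 0.159). In Dpp8, a cytosolic dipeptidyl peptidase, the pair differed by 0.26 and −0.37, and a further tested probe set by −0.04. In Ppcdc, an enzyme of coenzyme A synthesis, the pair differed by −0.01 and −0.48, the latter from 3.55, 3.19 and 3.37 to 2.78, 2.90 and 3.00, and a further probe set by −0.10. In Rdx, which encodes radixin, a link between actin and the membrane of the bile canaliculus, 1416179_PM_a_at read 9.54, 9.57 and 9.53 against 9.44, 9.40 and 9.42. 1416180_PM_a_at read 7.74, 7.87 and 7.17 against 6.69, 7.10 and 6.46, a difference of −0.85 beside −0.13 (limma, adjusted p = 0.28 for the pair). The third Rdx probe set, 1448236_PM_at, overlapped between genotypes and differed by −0.014.

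In 32 of the 44 genes no pair had an unadjusted p under 0.05. Over the array 10.2% of pairs were under 0.05, a share of pairs that cannot be set against this count of genes. The member share of pairs under 0.05 is not given here, so the 32 genes do not speak for ordinary agreement. At the stricter threshold of 0.01, the share of pairs was 11.5% among members and 3.27% over the array. Both probe sets of a pair changed in the same direction in 36 pairs (59%) and in opposite directions in 25, against 57.4% in the same direction over all pairs. The median absolute difference between the changes was 0.148 among members and 0.126 over all pairs. Of the 18 genes with a probe set at an unadjusted p under 0.01, 9 had only 1 tested probe set. In the other 9, a further probe set was under 0.05, in either direction, in 2 genes, Dlat and Dpp8. In Dpp8 it went the opposite way (0.26 beside −0.37). In Dlat, 1426264_PM_at and 1426265_PM_x_at fell while 1452005_PM_at rose by 0.28.

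The members were also grouped by role, with the brightest probe set standing for each gene and the median change of all genes at 0.04. None of 16 tested genes of mitochondria and intermediary metabolism passed (7 higher, 9 lower, median −0.01). The brightest member, Acat1, the mitochondrial acetoacetyl-CoA thiolase, read 10.39, 10.43 and 10.43 in wild type and 10.46, 10.46 and 10.39 in knockout (0.02, limma, adjusted p = 0.958). Fdx1, the ferredoxin that feeds electrons to mitochondrial P450 enzymes, read 9.98, 9.98 and 9.97 in wild type and 10.32, 10.41 and 10.43 in knockout. Its arrays were very close within each genotype and did not overlap (0.42, SE 0.09), with an adjusted p of 0.175 (limma), or 0.0178 when the variance prior followed the mean signal.

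Of 14 signalling and transcription genes, Dixdc1 fell and 13 did not pass (8 higher and 6 lower in all, median 0.01). Map2k1, a kinase of the ERK pathway and the brightest of the list, differed by 0.16. Of 11 genes of genome maintenance and cell division, Tex12 rose and 10 did not pass (9 higher and 2 lower in all, median 0.17). Cep164, a centriole protein, read 5.36, 5.16 and 5.11 against 4.90, 4.29 and 4.72 (−0.57, limma, adjusted p = 0.295), and Zw10, a kinetochore protein and the brightest of the list, differed by −0.05.

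No gene passed among 10 of adhesion and matrix (8 higher, median 0.07), 3 of neuronal receptors and channels, 15 of proteolysis and trafficking (10 higher, median 0.03) and 3 of immune cells. Nptn, an adhesion protein, differed by 0.02 and Dscaml1 by −0.19. Drd2, the dopamine receptor, read 3.34, 2.93 and 3.38 against 2.87, 2.58 and 2.61 (−0.53, limma, adjusted p = 0.287), at a signal close to the dim limit. Scamp5, a secretory carrier membrane protein, differed by 0.25 (limma, adjusted p = 0.499). In the immune list (1 higher, 2 lower, median −0.05) Il18 differed by 0.54, Cd276 by −0.22 and Sema7a by −0.05. Positive differences were seen for 8 of 8 macrophage markers, with a median of 0.40. The part of macrophage RNA in the Il18 value was not tested.

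Among the remaining probe sets at an unadjusted p under 0.01, Calml4, a calmodulin-like gene 7.57 Mb away on the upper side, read 2.77, 2.72 and 2.51 in wild type and 3.34, 3.45 and 3.04 in knockout (0.61, limma, adjusted p = 0.181). The genotypes did not overlap, but the wild-type values sat near the dim limit of 2.66. Gm5617, 6.72 Mb away on the lower side, differed by 0.44 (limma, adjusted p = 0.295). Anp32a, a gene of a nuclear phosphoprotein on the upper side, differed by 0.33 at 1421918_PM_at, by 0.18 at 1434555_PM_at and by −0.11 at its brightest probe set. None of these passed the adjusted test.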

How the data were processed

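Per the labels' protocols, Trizol was used for extraction, and biotin-labelled RNA from 250 ng went onto Affymetrix MG-430 PM strips. RMA, affy and limma are listed in the submitters' processing notes, without versions. The deposited values are log2 RMA signals, 1 column per array, and were used as deposited. Probe sets took their gene from the platform annotation: 28898 of 45141 had 1 symbol, 551 several and 15588 none, and 104 were controls. Positions came from RefSeq on GRCm38.p6, and promoter sequences from RefSeq on the same build matched 153 of the 175 genes by symbol.

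Probe sets whose mean lay below the 40th percentile were left out. limma 3.58.1 (R 4.3.3) compared 3 knockout with 3 wild-type arrays over 27022 probe sets, over 12466 genes by their brightest probe set, and over 6552 within-gene pairs, two-sided, with Benjamini-Hochberg adjustment over each whole table and a threshold of 0.05. The fits were tested on simulated data with 200 changed probe sets per draw. At a simulated log2 change of 0.5, 24.2% of probe sets, 42.9% of genes and 5.68% of pairs were found. At a change of 1 the shares were 92.3%, 94.9% and 82.6%. False calls made up 4.72%, 5.76% and 6.89% of the calls. The p-values measure the spread between pools, whose separate origin is given only as biological replicates. Array number limits the precision. Probe sets were named if they passed a test, had an unadjusted p under 0.01, belonged to Tex12, Dixdc1, Zbtb16, Bco2 or Dlat, were nearest to Nrg4 or brightest, or had the smallest p or highest signal in a role list; Npat, Fbxo22, further probe sets of named genes and the stretch from Pts to Layn were added after values were seen. The members and lists were chosen with earlier results of these data known. Alternatives covered normalisation, filter, prior, weights, block, threshold, window and arrays left out.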

Additional observations from a re-analysis of the deposited data

How the results depend on the processing

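Under re-normalisation, median centring, no dim filter, a robust prior, fitting only probe sets with 1 symbol, a 5 Mb window and a looser window, the calls stayed at 3 member probe sets, and at 2 genes wherever genes were refitted. Leaving out x and s probe sets gave 4 probe sets, with Zbtb16 added. With a dim limit at the 60th percentile 0 member probe sets and 0 genes passed, although 7 probe sets of the array did. A variance prior that followed mean signal gave 6 probe sets and 5 genes, array weights 5 and 4, and an adjusted p under 0.10 gave 5 and 4. Averaging the probe sets of each gene left 1 gene, Tex12. Leaving out 1 array gave 0 to 3 probe sets, 0 to 3 genes and 0 to 1 pairs. Pairs numbered 2 with no filter, 2 without x and s probe sets and 2 at 0.10. The count under 0.01 on the lower-coordinate side ranged from 8 to 14 without 1 array. On the upper side, it was 2 with the 60th percentile, 8 with array weights and 2 to 9 without 1 array. With replicate number as a block, 1 probe set (Zbtb16), 0 genes and 0 pairs passed. Same-numbered arrays correlated at −0.10, 0.08 and 0.002, and differently numbered arrays at −0.17 to 0.13. With so few arrays, these values cannot settle whether the numbers pair the arrays. The cause of these shifts was not tested. Some of these settings, but not all, fitted fewer arrays or probe sets.

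Near-zero changes turned sign. Array weights gave −0.017 for Chrna3 and 0.053 for Isl2. Without 1 array, changes ranged as follows: Zw10 −0.076 to 0.011, the dimmer Dixdc1 probe set −0.018 to 0.131, Chrna3 −0.0039 to 0.109, Ube2q2 −0.077 to 0.125, Etfa −0.050 to 0.011, Isl2 −0.125 to 0.029, Nptn −0.020 to 0.071. Signal near the dim limit and 3 pools per genotype limit what can be called, and the wild-type signal of Tex12 lay close to that limit.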
